A study of Mus musculus with 12 samples.

Results

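Genes encoding subunits of glutamate and GABA receptors were followed across 12 brain libraries of wild-type C57BL/6J mice. They were the genes of the count table whose mouse symbol names an AMPA, NMDA, kainate or delta receptor subunit, a metabotropic glutamate receptor, or a GABA-A or GABA-B subunit. A mean of at least 0.5 CPM, the reads of a gene scaled to a common library total, over the 12 libraries was required, which left 41 genes of the 53379 in the table. Of these, 24 encode glutamate receptors, 17 of them ionotropic and 7 metabotropic, and 17 encode GABA receptors, 15 of them GABA-A and 2 GABA-B. A further 6 genes matched by symbol and lay below the limit, and they are Gabra6 (mean 0.112 CPM), Gabrr1 (0.103), Gabrr3 (0.0918), Grin3b (0.0295), Grm6 (0.00707) and Gabrp, which had no counts. Just inside the limit stood Gabre at 0.513 and Gabrr2 at 0.783 CPM, and Gabra6 was the nearest outside it.

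The design text names the tissue as injured cortex, and the sample labels give it as brain. It was collected 6 months after repeated closed-head impacts graded as less than mild (rlmTBI) or after a sham procedure. Mice ate either a purified control diet without interruption or a high-fat diet with fish oil given in cycles. Fat content, fish oil and feeding in cycles therefore cannot be told apart. Each of the 4 groups, called purified sham, purified injured and likewise fish oil sham and injured, had 3 libraries, numbered 2, 3 and 4 in the titles. In each group the library names of replicates 3 and 4 share a first number, which replicate 2 does not have. What that number stands for is not given, so the 3 libraries of a group may not be equally independent. All groups were wild type, and the age and sex of the mice and the link of each library to a separate animal are not given in the labels, so each p-value rests on how these libraries vary, which may be technical.

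Glutamate is the main excitatory transmitter of cortex. AMPA receptors carry the fast current and NMDA receptors admit calcium and serve synaptic plasticity. Kainate receptors modulate release and excitability, and metabotropic receptors act through G proteins. GABA is the main inhibitory transmitter. GABA-A receptors are chloride channels built mostly of alpha, beta and gamma subunits, of which the alpha subunit sets much of the kinetics and drug response, and GABA-B receptors are G-protein-coupled pairs. In cortex, alpha5 and delta sit largely outside synapses, and the mix of NMDA receptor GluN2 subunits shifts during development from GluN2B towards GluN2A.

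Total counts ran from 46362158 to 70754854 per library. All 7 excitatory markers of cortex stood above 1 CPM in every library, and 3 of 4 cerebellar markers stood below 1 CPM in every library. Some libraries carried transcripts of other brain regions. The sum of 4 olfactory bulb neuron markers was 656 CPM in purified injured replicate 3, where the other 11 libraries reached at most 26.9. The sum of 6 striatal neuron markers was 1067 CPM in fish oil sham replicate 2, 464 in purified sham replicate 4 and at most 256 elsewhere. Choroid plexus markers, 6 in number, summed to 212 to 2596 CPM in fish oil injured libraries, with 469 CPM in purified sham replicate 3 and at most 59.1 in the rest. Beside several results that rest on purified injured replicate 3 or fish oil sham replicate 2, the value without that library is given. They are called the 2 libraries of other regions below. Leaving them out keeps purified sham replicate 4 and the libraries with high choroid plexus sums, so it does not remove all such transcripts.

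Levels between genes were compared as CPM divided by the summed exon length in kilobases, after TMM scaling, a correction of library size for composition. Over the 12 libraries Gabbr1, which binds GABA in the GABA-B receptor pair, had a mean per kilobase of 91.8, with a range of 74.8 to 101. The AMPA subunit gene Gria1 had a mean of 79.1, with a range of 58.3 to 108 that overlapped it. Among alpha subunits, Gabra3 stood at 58.7, Gabra4 at 26.9, Gabra5 at 25.5 and Gabra2 at 12.4 per kilobase. Among AMPA subunits the order was Gria1, Gria2 (65.4), Gria3 (38.3) and Gria4 (27.3). Among NMDA subunits the obligatory Grin1 stood at 34.6, Grin2b at 28.1 and Grin2a at 16.2, while Grin2d was lowest at 1.06. Kainate subunits were led by Grik5 (17.0) and Grik3 (14.7), and the delta receptor gene Grid1 stood at 11.5. Metabotropic receptors were led by Grm5 (27.9), Grm3 (22.0) and Grm7 (11.9) in groups I, II and III. Among GABA-A subunits, Gabrb2 stood at 34.6, Gabrg1 at 6.17 and Gabrd (17.8) led the delta, epsilon and theta genes, and the single rho gene above the limit, Gabrr2, stood at 0.372.

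**Figure D1:**
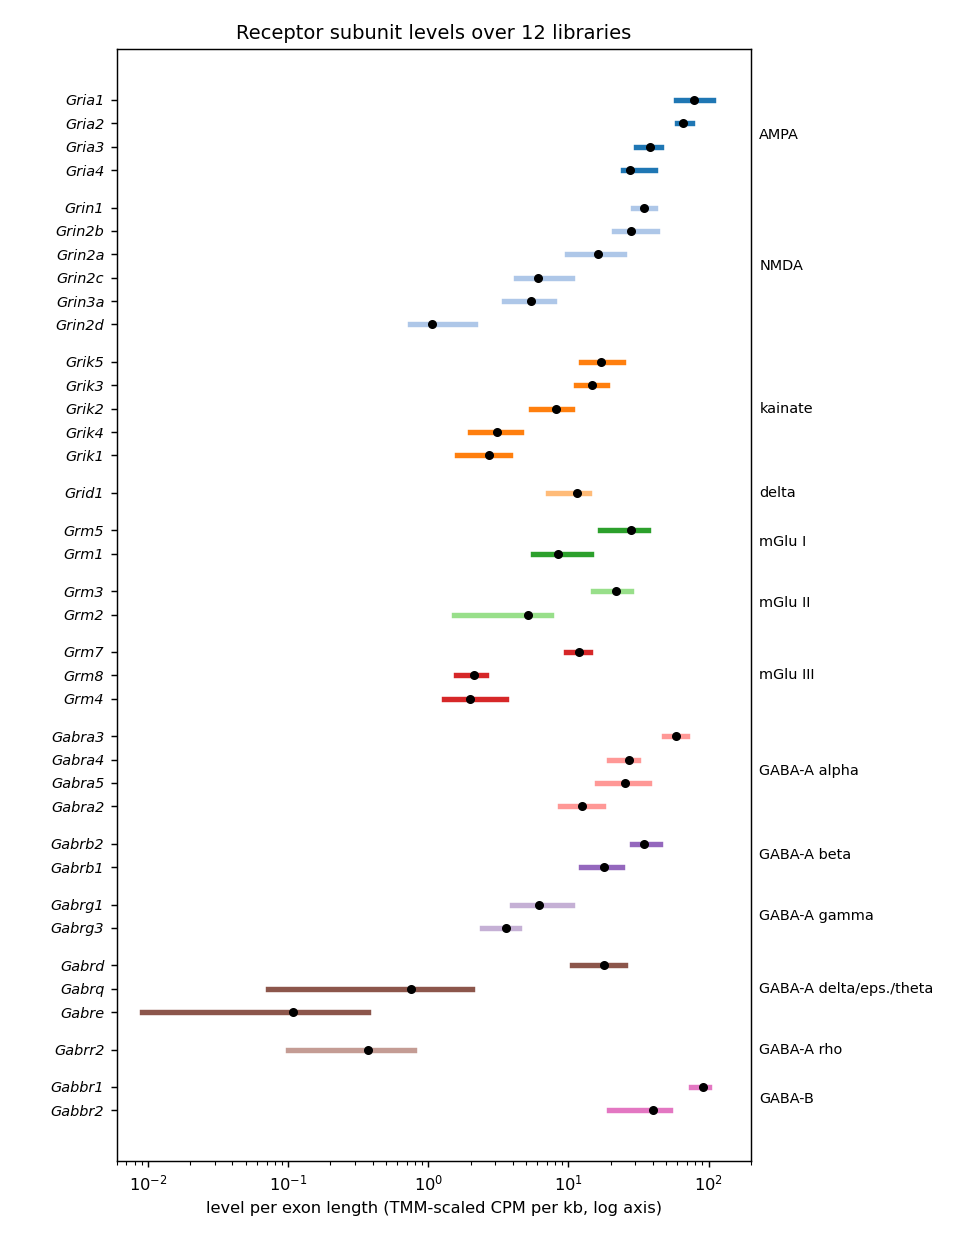
Mean level of 37 receptor genes (point) and its range over 12 libraries (bar), in TMM-scaled CPM per kilobase of exon on a log axis, by receptor class. Gabbr1 has the highest mean of those drawn, 91.8, and Gabre the lowest, 0.108, and the bars of the low genes Gabrq and Gabre are the widest.

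Within genes, levels differed between libraries to very unequal degrees. The coefficient of variation over 12 libraries had a median of 21.9%, and 20 of 41 genes differed less than 2-fold between their lowest and highest library. Gria2, the AMPA subunit that limits calcium entry, had the smallest coefficient of variation, and it ran from 924 to 1175 CPM. Gabrq, the theta subunit gene, ran from 0.385 to 11 CPM and Gabre, the epsilon subunit gene, from 0.0426 to 1.74 CPM, the Gabrq extremes both being fish oil injured libraries.

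After injury on the purified diet, the GABA-A alpha subunit genes Gabra3 and Gabra5 had higher means than in sham libraries, with fitted differences larger than their standard errors. No receptor gene passed the adjusted test in this or any other comparison. Gabra3 (ENSMUSG00000031343.13), the alpha3 subunit, stood at 189.5, 201 and 197 CPM in purified sham and 251, 243 and 277 in purified injured libraries, in replicate order. Every injured library lay above every sham library, with a log2 fold change of 0.39 ± 0.10 (SE) and an adjusted p of 0.763 by the quasi-likelihood test of edgeR, the 29th smallest p of 19252 genes. Gabra5 stood at 70.1, 49.0 and 47.2 CPM in sham and 68.4, 112 and 96.2 in injured libraries, where injured replicate 2 overlapped sham replicate 2, and its log2 fold change was 0.74 ± 0.25. Gabra4, whose subunit pairs with delta outside synapses, stood at 171, 169.9 and 183 CPM in sham and 169.8, 118 and 162 in injured libraries, lower without overlap by a narrow margin, and was at -0.22 ± 0.14. Gabra2 stood at 66.9, 87.9 and 77.2 CPM in sham and 74.9, 108 and 132 in injured libraries and was at 0.44 ± 0.27. In bulk tissue, fewer cells of a type and less RNA per cell cannot be told apart.

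Among the other GABA receptor genes in purified-diet mice, Gabrd had lower and Gabrq higher values in each injured library than in each sham library. Gabrd, the delta subunit of extrasynaptic receptors, stood at 57.5, 56.6 and 68.1 CPM in sham and 55.0, 41.5 and 30.6 in injured libraries. Its log2 fold change was -0.52 ± 0.33, and without purified injured replicate 4 it was -0.32. The theta gene Gabrq stood at 0.496, 0.766 and 1.30 CPM in sham and 1.93, 4.59 and 9.98 in injured libraries, a log2 fold change of 2.68 ± 1.16. The injured Gabrq values differed among themselves by more than the lowest of them differed from sham. The low-level genes Gabre and Gabrr2 were at 2.29 ± 1.12 and -0.91 ± 0.70. Of the beta subunits, which help bind GABA, Gabrb1 was at 0.08 ± 0.21 (95% interval -0.40 to 0.56) and Gabrb2 at -0.07 ± 0.14, or 0.11 without purified sham replicate 3. Of the gamma subunits, Gabrg1 was at 0.44 ± 0.32, or 0.14 without purified injured replicate 4, and Gabrg3 at -0.21 ± 0.26. The GABA-B genes Gabbr1 at -0.09 ± 0.11 (95% interval -0.35 to 0.17) and Gabbr2 at -0.12 ± 0.30 had values within their standard errors.

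**Figure D2:**
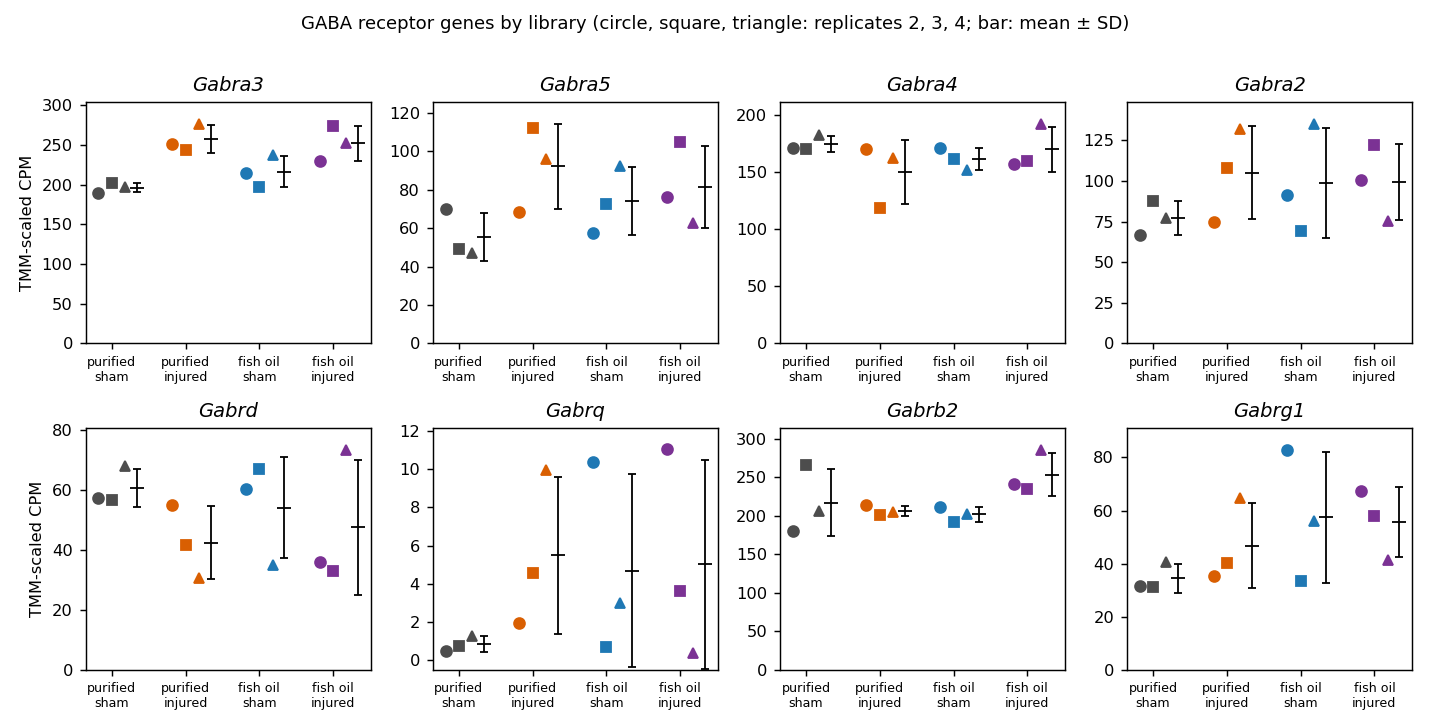
TMM-scaled CPM of 8 GABA-A subunit genes in each library, by group, with circles, squares and triangles for replicates 2, 3 and 4 and black bars for the mean and SD of 3 libraries. Gabra4 and Gabrd lie lower, and Gabra3 and Gabrq higher, in each purified injured library than in each purified sham library. In Gabrd and Gabrq both fish oil groups have a larger SD than both purified groups, which is not so in Gabrb2 or Gabra4.

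Of the glutamate receptor genes, Gria1, Grik3 and Grm4 had an unadjusted p under 0.05 after purified-diet injury, and all 3 were higher. Gria1, the GluA1 subunit added to synapses in plasticity, stood at 355, 410.1 and 402 CPM in sham and 452, 652 and 532 in injured libraries, without overlap, a log2 fold change of 0.49 ± 0.19. Grik3, a kainate subunit, stood at 118, 120.2 and 101 CPM in sham and 169, 162 and 121 in injured libraries and did not overlap either, at 0.41 ± 0.15. Grm4, a presynaptic group III receptor, stood at 7.69, 7.79 and 10.3 CPM in sham and 11.5, 21.5 and 9.20 in injured libraries. Injured replicate 4 lay within the sham range of Grm4, and the log2 fold change of 0.71 ± 0.27 became 0.28 without purified injured replicate 3. Lower values belonged to Grin2a, the GluN2A subunit, at 303, 363 and 294 CPM in sham and 288, 175 and 243 in injured libraries. The Grin2a groups did not overlap, at -0.44 ± 0.24, or -0.25 without purified injured replicate 3. Grin2b, the GluN2B subunit, was at -0.04 ± 0.23, and Grin2b per Grin2a, per length, was 1.37, 1.80 and 1.39 in sham and 1.81, 2.16 and 2.17 in injured libraries. On fish oil this ratio was 2.39, 1.33 and 1.96 in sham and 1.69, 2.45 and 1.15 in injured libraries, and it was not tested. Grin3a, a subunit that lowers calcium flow through NMDA receptors, stood at 46.6, 49.9 and 44.3 CPM in sham and 51.6, 69.8 and 86.1 in injured libraries, above sham in each library (0.56 ± 0.32). Values within their standard errors belonged to Grin1 at -0.02 ± 0.15 (95% interval -0.36 to 0.32), Gria2 at -0.08 ± 0.10 and Grm5, the main group I receptor of cortex, at 0.03 ± 0.28 (95% interval -0.62 to 0.68).

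By edgeR 0 of 41 receptor genes passed the adjusted test after purified-diet injury, as did 0% of all 19252 genes tested, and DESeq2 and limma-voom also called 0 of the 41. At an unadjusted p under 0.05 there were 8 of 41 (19.5%), against 6.5% of all genes. Of these, 6 were higher, where the share of all genes was 3.93%, and 2 lower, where it was 2.57%. The libraries of sham and injured mice did not overlap for 10 of 41 genes (24.4%), against 11.6% of all genes. They were 5 higher (all genes 4.92%) and 5 lower (all genes 6.68%). The median log2 fold change was 0.08 over the 41 genes and 0.00 over all genes. The count at an unadjusted p under 0.05 depended on single libraries. It was 2 of 41 (4.88%) without purified injured replicate 3, against 4.93% of all genes. Without purified injured replicate 2 it was 14 (34.1%), against 10.9%. Without purified sham replicates 2, 3 and 4 in turn it was 4, 5 and 4, against 4.2%, 3.65% and 5.73% of all genes. Without both libraries of other regions it was 3 of 41 (7.32%), against 5.19% of all genes. Gabra3 was then at 0.44, Gabra5 at 0.58, Gria1 at 0.35 and Grik3 at 0.37.

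Markers of neuron types differed between the same libraries. Pvalb, a marker of fast-spiking interneurons, stood at 74.9, 41.4 and 56.3 CPM in purified sham, 27.1, 17.7 and 15.9 in purified injured, 16.6, 67.9 and 42.9 in fish oil sham and 44.1, 17.4 and 102 in fish oil injured libraries. The sum of 6 interneuron markers ran over 825 to 889 CPM in purified sham, 668 to 2309.8 in purified injured, 856 to 1371 in fish oil sham and 748 to 1082 in fish oil injured libraries, and none of the 6 was at 0 in any library. The sum of 7 cortical excitatory markers ran over 1121 to 1296, 829.7 to 1594, 696 to 1349.5 and 1005 to 1415 CPM in the same order of groups. Pvalb was singled out after its values were seen. After purified-diet injury 4 of the 6 interneuron markers were below 0 and 2 above, with log2 fold changes from -1.51 to 0.78. The interneuron sum of 2309.8 CPM was that of purified injured replicate 3, the library with olfactory bulb transcripts. The 4 oligodendrocyte markers, none at 0 in any library, summed to 1459.5 to 4238 CPM in purified sham and 1543 to 2260.4 in purified injured libraries, and the 4 endothelial markers, none at 0, to 74.8 to 102 and 61.9 to 74.4 CPM. The part of these markers in the receptor differences was not tested.

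Most GABA-A subunit genes lie in clusters, and the genes of a cluster can be set side by side. Positions are those of the GENCODE M21 annotation on GRCm38. On the X chromosome, Gabre (chrX:72255999-72274803, minus strand), Gabra3 (chrX:72432681-72656848, minus strand) and Gabrq (chrX:72825178-72842602, plus strand) are neighbours, and after purified-diet injury all 3 fitted values were above 0, at 2.29, 0.39 and 2.68. Values of both signs were held by a cluster on chromosome 5. There, Gabrg1, Gabra2, Gabra4 and Gabrb1 were at 0.44, 0.44, -0.22 and 0.08. On chromosome 7, Gabrg3 and Gabra5 were at -0.21 and 0.74. Gabra4 and Gabrb1 overlap by 196 bases on opposite strands, and Gabra5 (chr7:57407672-57510059, minus strand) lies in a stretch annotated on both strands. The sources used here do not give the strand setting of the counting, and reads in those overlaps may be shared.

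The promoters of the 3 neighbours on the X chromosome and of Gabra5 are shown because Gabra3 and Gabra5 had the smallest p-values of all receptor genes after purified-diet injury and the neighbours of Gabra3 had the largest fitted values. Sequences are from RefSeq on GRCm38.p6 and run 250 bases up to the base before the start site, 5′ to 3′ on the strand of the gene, in lower case. Capitals mark a GC box. Gabra3 (chrX:72656808-72657057, minus strand), Gabrq (chrX:72824928-72825177, plus strand), Gabre (chrX:72274722-72274971, minus strand) and Gabra5 (chr7:57510060-57510309, minus strand) read as follows.
Gabra3: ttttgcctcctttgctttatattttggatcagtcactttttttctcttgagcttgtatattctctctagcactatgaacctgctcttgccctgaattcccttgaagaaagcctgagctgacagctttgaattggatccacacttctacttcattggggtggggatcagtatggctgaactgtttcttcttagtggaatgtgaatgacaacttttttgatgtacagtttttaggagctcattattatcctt
Gabrq: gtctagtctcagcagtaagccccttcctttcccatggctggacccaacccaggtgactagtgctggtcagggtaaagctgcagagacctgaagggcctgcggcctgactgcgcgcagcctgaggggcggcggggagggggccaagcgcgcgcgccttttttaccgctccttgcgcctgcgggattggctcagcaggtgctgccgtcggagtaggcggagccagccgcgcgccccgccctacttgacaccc
Gabre: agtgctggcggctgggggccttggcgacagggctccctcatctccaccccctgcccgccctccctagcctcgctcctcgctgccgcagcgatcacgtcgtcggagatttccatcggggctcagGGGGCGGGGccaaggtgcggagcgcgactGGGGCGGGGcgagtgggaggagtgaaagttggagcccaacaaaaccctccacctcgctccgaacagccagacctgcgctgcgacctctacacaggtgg
Gabra5: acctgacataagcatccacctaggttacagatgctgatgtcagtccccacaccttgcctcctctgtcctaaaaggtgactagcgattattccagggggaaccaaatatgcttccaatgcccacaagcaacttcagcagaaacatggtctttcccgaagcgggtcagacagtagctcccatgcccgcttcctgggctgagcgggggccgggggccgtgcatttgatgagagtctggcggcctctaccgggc

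The 4 promoters differ in base composition. G and C made up 39.2% of the Gabra3 window, 56.4% of the Gabra5 window, 67.2% of the Gabrq window and 68.8% of the Gabre window, against a median of 52.4% over all 32851 RefSeq windows and of 62.0% over the 33 windows of 26 receptor genes that matched by symbol. Both strands were searched for 4 motifs, the GC box GGGGCGGGG, the cAMP response element TGACGTCA, the E-box CACGTG and the Egr site GCGTGGGCG. Gabre held 2 copies of the GC box, which do not overlap, and no other motif was in the 4 windows. The GC box was in 10.4% of all windows and in 5 of the 33 receptor gene windows, those of Gabre, Gabrg3, Grik5, Grin2c and Grm2. The cAMP response element was in 1.55% of all windows, the E-box in 6.02% and the Egr site in 0.536%, and among receptor genes only Grin1 held one of these, an E-box. Such matches describe letters, not binding.

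After injury on the fish oil diet, 29 of the 41 fitted values were smaller than their standard errors, against 16 of 41 on the purified diet. The matching share of all genes was not computed, so the contrast is not particular to receptor genes. Over all genes, the share at an unadjusted p under 0.05 was also lower, at 3.48% against 6.5%. Gabrb2, the beta2 subunit, had the smallest unadjusted p. It stood at 211, 192 and 202 CPM in fish oil sham and 241, 234 and 285 in fish oil injured libraries, without overlap, a log2 fold change of 0.33 ± 0.14 (edgeR adjusted p = 0.999). Gabra3 stood at 214, 197 and 237 CPM in sham and 229.6, 274 and 253 in injured libraries, where injured replicate 2 lay below sham replicate 4, and was at 0.22 ± 0.10, or 0.15 without fish oil sham replicate 3. Grin2a stood at 175, 305 and 282 CPM in sham and 293, 311 and 447 in injured libraries, a log2 fold change of 0.46 ± 0.24, with values of 0.24 without fish oil sham replicate 2 and 0.25 without fish oil injured replicate 4. Fish oil sham replicate 2, the library with the highest sum of striatal markers, was the lowest of its group in Grin2a and fish oil injured replicate 4 the highest of its own. Grik2, a kainate subunit, stood at 138, 91.7 and 109.5 CPM in sham and 112, 87.2 and 71.6 in injured libraries. Its log2 fold change was -0.32 ± 0.19, with -0.17 without fish oil sham replicate 2, -0.19 without fish oil injured replicate 4 and -0.51 without fish oil injured replicate 2. Grm3, a group II receptor found on astrocytes as well as neurons, stood at 68.1, 67.6 and 60.8 CPM in sham and 74.0, 76.1 and 85.9 in injured libraries without overlap (0.26 ± 0.15). Gria3, a further AMPA subunit, was higher without overlap (0.17 ± 0.14), and Grin2c lower by a narrow margin (-0.23 ± 0.22, or -0.13 without fish oil injured replicate 2). Grin2c stood at 29.4, 27.8 and 31.5 CPM in fish oil sham and 21.4, 27.7 and 26.2 in fish oil injured libraries.

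For this comparison edgeR called 0 of 41 receptor genes and 0% of all genes, and DESeq2 and limma-voom called 0 of the 41. Unadjusted p-values under 0.05 belonged to 1 of 41 (2.44%), against 3.48% of all genes. With 1 library left out the count ran from 1 to 3. It was 3 without fish oil injured replicate 2 or 3, against 4.84% and 3.86% of all genes. Libraries did not overlap for 4 of 41 genes (9.8%), against 10.2% of all genes. Over all 12 libraries both this share and that at an unadjusted p under 0.05 were near the background. Of the 4 genes without overlap, 3 were higher (all genes 4.97%) and 1 lower (all genes 5.23%). GABA receptor genes were above 0 for 15 of 17, glutamate receptor genes for 12 of 24, and 49% of all genes were above 0. The choroid plexus markers of the fish oil injured libraries differed from the fish oil sham libraries, where they summed to 29.4 to 59.1 CPM, and their part in these values was not tested.

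**Figure D3:**
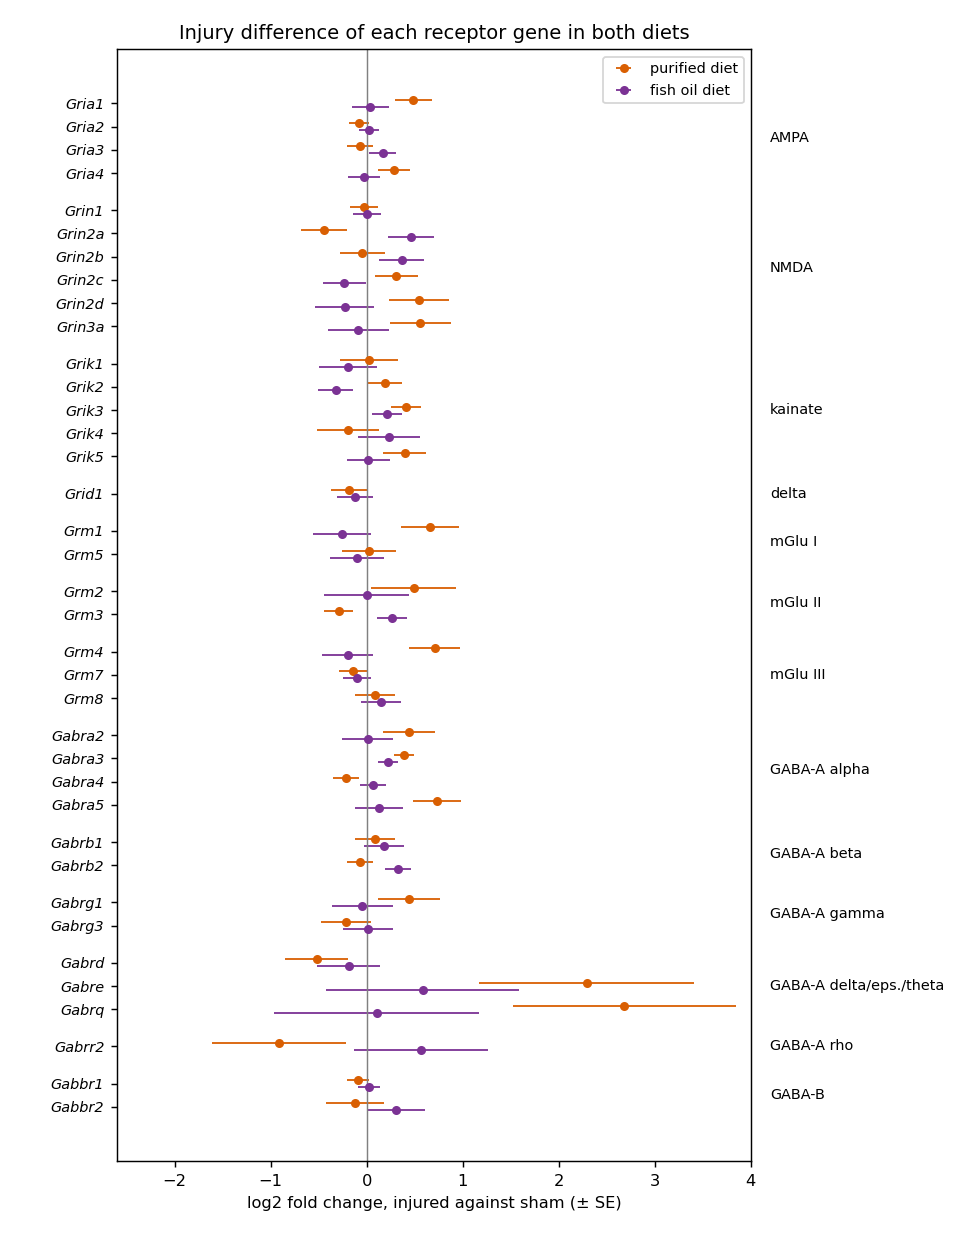
Fitted log2 fold change of injured against sham libraries (point) with its standard error (bar) for 37 receptor genes by class, in purified-diet mice (orange) and fish oil mice (purple). Grin2a and Grm3 lie below 0 on the purified diet and above 0 on fish oil, Gabra3 and Grik3 lie above 0 in both, and none passed the adjusted test.

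Averaged over both diets, Gabra3 had the smallest unadjusted p of the 41 genes for injury, and it ranked 8th of 19252 genes. Its log2 fold change was 0.31 ± 0.07 (edgeR adjusted p = 0.991), a 1.24-fold higher level, and it ran from 0.27 to 0.34 over 19 alternative analyses. Grik3 was at 0.31 ± 0.11 (0.26 to 0.38 over the alternatives) and Gabra5 at 0.43 ± 0.18, which was 0.28 without the 2 libraries of other regions. Gria1 was at 0.26 ± 0.14, and 0.17 without fish oil sham replicate 3. The averages of Gabra5 and Gria1 came mostly from the purified diet. Gabra5 was at 0.74 there and 0.13 on fish oil, Gria1 at 0.49 and 0.04, and Grik3 at 0.41 and 0.21. By edgeR 0 of 41 passed, as did 0% of all genes, and DESeq2 and limma-voom called 0 of the 41. Unadjusted p-values under 0.05 belonged to 3 of 41 (7.32%), against 3.6% of all genes, and all 3 were higher, where the share of all genes was 1.89%. Left-out libraries moved this count to 7 without fish oil injured replicate 4, to 5 without fish oil sham replicate 2 and to 5 without purified injured replicate 2, and it was 2 or 3 without any other library. Beside the counts of 7, 5 and 5 the share of all genes was 5.12%, 4.27% and 7.41%.

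The difference between the 2 injury effects was tested as an interaction, fish oil minus purified. Grin2a had the smallest p, with an interaction of 0.91 ± 0.34 on the log2 scale (edgeR adjusted p = 0.820), and 0.50 without the 2 libraries of other regions. Grm3 was at 0.56 ± 0.22. In both genes the injury value was below 0 on the purified diet and above 0 on fish oil. The purified-diet value of Grm3 was -0.29, and -0.16 without purified injured replicate 3. Grm4 had an interaction in the other direction, at -0.91 ± 0.38, or -0.48 without purified injured replicate 3. By edgeR 0 of 41 interactions passed, as did 0% of all genes, and DESeq2 and limma-voom called 0 of the 41. At an unadjusted p under 0.05 there were 5 of 41 (12.2%), against 5.76% of all genes. Without the 2 libraries of other regions there were 0 of 41, against 2.93% of all genes. With 1 library left out the count was lowest, at 0, without purified injured replicate 3, against 4.44% of all genes. It was highest, at 10 (24.4%), without purified injured replicate 2, against 7.8%.

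**Figure D4:**
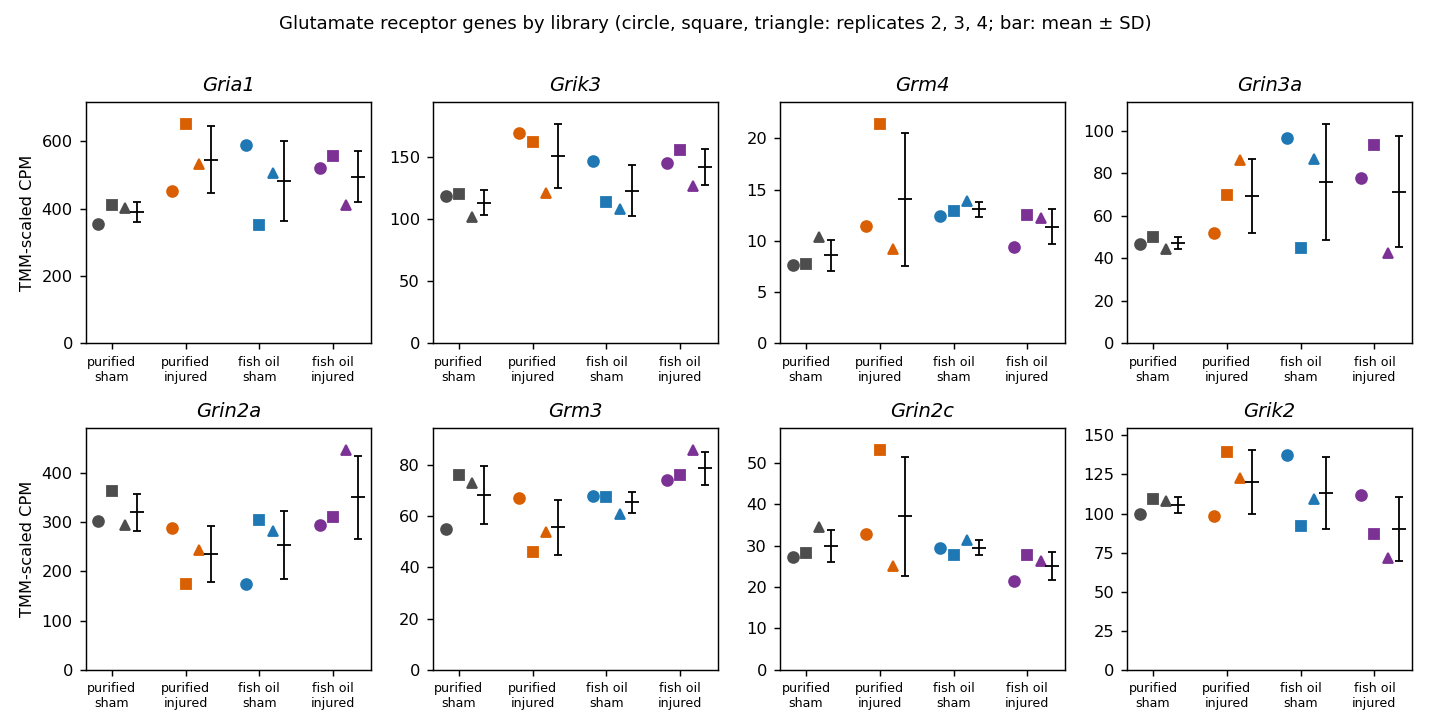
TMM-scaled CPM of 8 glutamate receptor genes in each library, by group, with circles, squares and triangles for replicates 2, 3 and 4 and black bars for the mean and SD of 3 libraries. Gria1, Grik3 and Grin3a lie higher and Grin2a lower in each purified injured than in each purified sham library, and Grm3 lies higher in each fish oil injured library than in each purified injured library.

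Between the diets in sham mice, the genes with the smallest p were Gabrg1, Grm4, Grin3a and Gabrq, all with higher mean values on fish oil. The comparison shares the purified sham libraries with the purified-diet injury comparison. Gabrg1, the gamma1 subunit gene, stood at 31.6, 31.1 and 40.7 CPM in purified sham and 82.8, 33.4 and 56.1 in fish oil sham libraries, a log2 fold change of 0.74 ± 0.32. The highest value was that of fish oil sham replicate 2, and without it the log2 fold change was 0.39. Gabrq stood at 10.4, 0.690 and 3.02 CPM on fish oil and was at 2.45 ± 1.15, or 1.12 without that library and 1.47 by limma-voom with correlated libraries. Grin3a stood at 96.4, 44.7 and 86.6 CPM and was at 0.69 ± 0.32. Replicate 3 of the fish oil sham group lay within the purified sham range in all 3 of these genes. Grm4 stood at 12.4, 12.9 and 13.9 CPM, above each purified sham library, and was at 0.60 ± 0.27 (edgeR adjusted p = 0.934). By edgeR 0 of 41 passed, as did 0% of all genes, and DESeq2 and limma-voom called 0 of the 41. At an unadjusted p under 0.05 there were 2 of 41 (4.88%) against 3.69% of all genes, and libraries did not overlap for 2 of 41 (4.9%), Gria3 lower and Grm4 higher, against 13.8%. With 1 library left out the count at an unadjusted p under 0.05 ran from 0, without purified sham replicate 3 or fish oil sham replicate 4, to 5, without fish oil sham replicate 3, and it was 1 to 3 without any other library. The share of all genes without the named libraries was 1.96%, 3.07% and 6.88% in the same order.

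Between the diets in injured mice, Grm3 had the smallest p. It stood at 67.3, 45.9 and 53.8 CPM in purified injured and 74.0, 76.1 and 85.9 in fish oil injured libraries, without overlap, a log2 fold change of 0.50 ± 0.15 (edgeR adjusted p = 0.390). Grin2a and Gabrb2 were also higher on fish oil without overlap, at 0.57 ± 0.24 and 0.29 ± 0.14, and without fish oil injured replicate 4 they were at 0.35 and 0.19. Lower on fish oil were Grik2 at -0.41 ± 0.19 and Grin2c, the GluN2C subunit, at -0.56 ± 0.23. Grin2c stood at 33.0, 53.2 and 25.1 CPM in purified injured and 21.4, 27.7 and 26.2 in fish oil injured libraries, and without purified injured replicate 3, the library with olfactory bulb transcripts, it was at -0.22. By edgeR 0 of 41 passed, as did 0% of all genes, and DESeq2 and limma-voom called 0 of the 41. At an unadjusted p under 0.05 there were 6 of 41 (14.6%), 4 higher (all genes 3.89%) and 2 lower (all genes 6.83%), against 10.7% of all genes. There was 1 of 41 without the 2 libraries of other regions, against 5.74% of all genes, and 1 without purified injured replicate 3 alone, against 6.06%. There were 3 without fish oil injured replicate 2 and 2 without fish oil injured replicate 4, against 11.2% and 6.19%. Libraries did not overlap for 3 of 41 (7.3%), against 11.6% of all genes.

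Averaged over sham and injured mice, no receptor gene had an unadjusted p under 0.05 between the diets. The smallest p-values belonged to Gabrg1 at 0.49 ± 0.23, Grm3 at 0.22 ± 0.11, Grin2c at -0.29 ± 0.16 and Gria2 at -0.12 ± 0.07. Without the 2 libraries of other regions Gabrg1 was at 0.27, Grm3 at 0.15 and Grin2c at -0.11. Gria2 stood at 1036, 1175 and 1057 CPM in purified sham and 1052, 1059.8 and 985 in purified injured libraries. On fish oil it stood at 931, 924 and 1043 CPM in sham and 1056, 928 and 958 in injured libraries, so the diets overlapped. Unadjusted p-values under 0.05 belonged to 0 of 41 receptor genes by edgeR, against 8.85% of all genes. By the adjusted test 0 of 41 passed, as did 0% of all genes, and DESeq2 and limma-voom called 0 of the 41. GABA receptor genes were above 0 for 16 of 17, with a median of 0.11, and 52.5% of all genes were above 0.

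The remaining genes with the highest level of their class overlapped between groups in each of the 4 comparisons of single groups. Grik5, a kainate subunit that needs a partner, ran from 63.8 to 84.3 CPM in purified sham and 79.5 to 128 in purified injured libraries, and over 82.0 to 97.1 and 63.5 to 117 in fish oil sham and fish oil injured libraries. Grid1, the delta receptor gene of forebrain, ran from 57.9 to 75.2 CPM in purified sham and 42.7 to 75.6 in purified injured libraries, and over 74.5 to 80.6 and 60.6 to 83.5 in fish oil sham and fish oil injured libraries. Grm5, whose receptor signals through phospholipase C, ran from 219 to 289 CPM in purified sham and 172 to 357 in purified injured libraries, and over 228 to 379.9 and 214 to 373 in fish oil sham and fish oil injured libraries. None of these 3 genes separated any pair of groups that was compared. Grm7, a presynaptic autoreceptor gene, ran from 63.1 to 84.2 CPM in purified sham and 56.5 to 79.9 in purified injured libraries, and over 67.5 to 79.2 and 59.2 to 71.5 in fish oil sham and fish oil injured libraries. Grin1 ran from 321 to 369 CPM in purified sham and 279 to 401 in purified injured libraries, and over 309.8 to 357 and 284 to 385 in fish oil sham and fish oil injured libraries. Gabbr1 ran from 699.7 to 742 CPM in purified sham and 580.4 to 755 in purified injured libraries, and over 654 to 784 and 708 to 769 in fish oil sham and fish oil injured libraries. In each of these genes the groups overlapped. Gabrr2, near the lower limit of level, ran from 0.362 to 1.48 CPM in purified sham and 0.460 to 0.652 in purified injured libraries, and over 0.210 to 0.932 and 0.298 to 1.67 in fish oil sham and fish oil injured libraries. The least expressed member, Gabre, ran from 0.0426 to 0.214 CPM in purified sham and 0.118 to 1.14 in purified injured libraries, and over 0.113 to 1.18 and 0.192 to 1.74 in fish oil sham and fish oil injured libraries.

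Genes that work with these receptors were examined in 6 lists, of 57 genes in all. By edgeR 0 of 57 passed the adjusted test in any comparison, as by DESeq2 and limma-voom, and after purified-diet injury 8 of 57 had an unadjusted p under 0.05, 7 higher and 1 lower, against 6.5% of all genes. That count was 3 without purified injured replicate 3, 5 without the 2 libraries of other regions and 5 without purified sham replicate 3, while it was 12 without purified injured replicate 2 and 13 without purified injured replicate 4. The share of all genes was 4.93%, 5.19%, 3.65%, 10.9% and 7.51% in the same order. Auxiliary subunits of glutamate receptors had 3 of 13 members at an unadjusted p under 0.05 after purified-diet injury, all higher, with Cacng5 at 3.05 ± 0.99, Shisa9 at 0.77 ± 0.27 and Shisa6 at 1.20 ± 0.44. All 3 peaked in purified injured replicate 3, the library with olfactory bulb transcripts, and without it they were at 1.07, 0.47 and 0.73. Cacng5, which modifies AMPA receptor gating, stood at 7.52, 134 and 19.5 CPM in purified injured libraries and at 6.05, 4.47 and 8.95 in purified sham libraries. Of 16 scaffold and signalling genes, Homer1, which links metabotropic receptors to calcium stores, had an interaction of 1.37 ± 0.33, Grip1 was at 0.79 ± 0.26 after purified-diet injury and Homer2 at 0.57 ± 0.21 for injury averaged over diets. Grip1 was at 0.44 without purified injured replicate 3, and Homer2 at 0.35 without the 2 libraries of other regions. Of 8 genes of glutamate release and uptake, Slc1a2, the main glial glutamate transporter, was at 0.39 ± 0.17 for diet in injured mice, or 0.22 without purified injured replicate 3. Slc1a3, its glial relative, and Slc17a6, a vesicular transporter of subcortical and some cortical neurons, were at 0.33 ± 0.19 and -0.87 ± 0.52 after purified-diet injury, and at 0.51 and -0.48 without purified injured replicate 2. Of 6 genes of GABA synthesis, release and uptake, the GABA transporter gene Slc6a11 was at 1.32 ± 0.47 after purified-diet injury, with 141, 742 and 235 CPM in injured libraries, the highest again in replicate 3, without which it was at 0.35. Slc32a1, which fills vesicles with GABA, was at 0.66 ± 0.38 for diet in sham mice, or 0.07 without fish oil sham replicate 2. Of 10 GABA receptor partners, Kctd12, an auxiliary subunit of GABA-B receptors, was at 1.37 ± 0.46 after purified-diet injury, with 70.0, 66.1 and 91.6 CPM in sham and 91.2, 329 and 169 in injured libraries, and it was at 0.79 without purified injured replicate 3. Kctd16, of the same family, was at 0.71 ± 0.27 and Shisa7, a GABA-A auxiliary subunit, at -0.29 ± 0.13 for diet in injured mice. Of 4 delta receptor ligand genes, Cbln2 and Cbln1 were at -0.73 ± 0.55 and 0.89 ± 0.86 for diet in sham mice, and at -0.48 and 0.55 without fish oil sham replicate 4.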

How the data were processed

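Whole-tissue RNA was sequenced as paired reads from stranded libraries, per the labels' protocols. The authors deposited 1 table of raw counts per gene, made with STAR 2.5.2a and featureCounts 1.4.3-p1 on mm10, per the submitters' processing notes. Annotation, strand setting and handling of multi-mapped reads: not given in the sources used here. Values of 2 (20514) outnumbered values of 1 (11222), so both mates of a pair may have been counted. Symbols came from GENCODE M21 for 53274 of 53379 identifiers, matched without version, and exon lengths from the same release. Positions were used for the 40 members that matched with version, which leaves out Grm4.

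Genes were kept with filterByExpr (minimum count 10), which left 19252, and all 41 members passed it. The 12 libraries were fitted as 4 group means with edgeR 4.0.16 (TMM, robust glmQLFit and glmQLFTest), and p-values were adjusted by Benjamini-Hochberg over all 19252 genes with a threshold of 0.05. Standard errors come from the F statistic, and 95% intervals from a t distribution with 8 degrees of freedom. CPM are TMM-scaled, except for the rule on level. The fit was tested on simulated data. Replicates were compared by chi-square, differed by more than counting error in each pair, and were all kept as separate samples.

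Values per library are given for any member past the threshold, the 4 members with the smallest p in each of 7 comparisons and the member with the highest level per length in each class. For each partner list, 3 genes with the smallest p are named. Some genes that these rules select are not reported here, and the counts include them. Members and lists were chosen with earlier results of these data known, and the 2 libraries of other regions were known then too. Alternatives were RLE and upper-quartile factors, no filter, DESeq2 1.42.0, limma-voom (limma 3.58.1) with a correlation between libraries whose names share a first number, a replicate block, and leaving out libraries. The fitted correlation was negative, at -0.256, so limma-voom made no allowance for likeness between such libraries. For injury on the purified diet it put 11 receptor genes at an unadjusted p under 0.05, against 8 by edgeR. For diet in sham mice, the only comparison with fewer, it put 1 there, against 2.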

Additional observations from a re-analysis of the deposited data

How the results depend on the processing

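All 41 receptor genes remained uncalled in each comparison under each of 19 alternatives, and the 28 pairs of a gene and a comparison chosen by smallest p kept their direction in all 532 refits. The lowest adjusted p among those was 0.0909, for Grin2c between diets in injured mice without purified injured replicate 4. The pairs were chosen in the same libraries that were refitted, so a kept direction was favoured in advance and is no independent support. Sizes moved, as Gabrq for diet in sham mice fell from 2.45 to as low as 1.12. Grin2c for diet in injured mice went from -0.56 to as little as -0.22. Over all genes, where edgeR called 0 in each comparison, DESeq2 called 14 for injury on the purified diet, 37 for injury on fish oil, 17 for diet in sham mice, 186 for diet in injured mice, 3 for injury averaged, 99 for diet averaged and 21 for the interaction. Without the filter 1 gene was called for injury averaged and 2 for diet averaged. Limma-voom with correlated libraries called 1 for injury on fish oil, 2 for injury averaged and 2 for diet averaged. Without the 2 libraries of other regions 1 gene was called for diet in injured mice. With 1 library left out, called genes ran from 0 to 83 for diet in injured mice (83 without purified injured replicate 4), 0 to 6 for diet averaged and 0 to 7 for injury on fish oil. The median log2 fold change of the 41 genes then ran from 0.030 to 0.17 for injury on the purified diet, from -0.0056 to 0.17 for diet in sham mice and from -0.17 to -0.031 for the interaction. The cause was not tested.

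With the replicate number as a block edgeR called 0 genes in all 7 comparisons. For injury on the purified diet 9 of 41 receptor genes then had an unadjusted p under 0.05, against 8 without the block. The share of all genes was 4.47%, against 6.5%. For diet in injured mice there were 3, against 6, and the share of all genes was 8.4%, against 10.7%. Pairing by replicate number was not seen: same-numbered libraries of different groups had correlations of -0.371 to 0.278 in their deviations, over 0.1 in 3 of 18 pairs. For differently numbered libraries these correlations ran from -0.34 to 0.379. The deviations are from means of only 3 libraries, so the check cannot exclude a pairing or a shared batch. Of the least expressed members, Gabre and Gabrr2 had few reads, 331 and 522 in all. Gabrq had 2577, and its counts ran from 20 to 608 per library.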

Other observations

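The subunit mix of other receptor classes, as shares of the summed level per length, also differed between libraries. Among AMPA subunits Gria1 held 32.2% ± 1.42 (SD, n = 3) in purified sham, 39.8% ± 4.28 in purified injured, 38.8% ± 6.50 in fish oil sham and 38.7% ± 3.72 in fish oil injured libraries. Gria2 held 35.0% ± 0.413, 29.5% ± 2.13, 30.6% ± 2.56 and 30.0% ± 2.28 in the same order, and its 3 purified sham libraries (35.2, 35.3 and 34.5%) lay above all 3 purified injured ones (31.7, 27.5 and 29.3%). They also lay above each fish oil sham library (27.9, 33.0 and 30.9%) and each fish oil injured library (31.1, 27.4 and 31.6%). The separation was therefore not particular to injury, and in CPM Gria2 overlapped between purified sham and purified injured libraries. Among GluN2 subunits Grin2b held 48.2% to 64.0% and Grin2c 8.29% to 24.3%, the highest Grin2c share being that of purified injured replicate 3, the library with olfactory bulb transcripts. Among kainate subunits Grik4, which has a high affinity for its ligand, held 4.43% to 9.60%. These shares are descriptions with no test.

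Of the genes under the level limit, Gabra6, a subunit of cerebellar granule cells, had 68 counts in all over 11 libraries, Gabrr1 66 over 11, Gabrr3 60 over 10, Grin3b 19 over 7 and Grm6 6 in 1 library. Gabra6 stood at 0.118, 0.530 and 0.280 CPM in the purified injured libraries and at 0.0331, 0.0426 and 0 CPM in purified sham libraries. These values rest on 6, 26 and 14 counts against 2, 2 and 0. The highest was that of purified injured replicate 3, the library with olfactory bulb transcripts. On fish oil Gabra6 ran over 0.0282 to 0.0380 CPM in sham and 0.0385 to 0.105 in injured libraries.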
